A study of Caenorhabditis elegans with 9 samples.

Results

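The genes described here are 36 genes of the C. elegans germline, from P granule components and RNA regulators to meiotic chromosome proteins and oocyte or eggshell proteins, out of 17118 genes with a probe set of their own on the GeneChip. Where a gene had several probe sets that the platform annotation gives to no other gene, the brightest by its mean over the 9 arrays stood for it. All 36 genes had at least 1 such probe set. Binding of related genes to the same probe set was not tested. They were grouped by role into 5 P granule genes, 11 RNA regulators of germline stem cells and meiotic entry, 8 RNA regulators of oocytes and early embryos, 8 meiosis genes and 4 oocyte and eggshell genes.

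The study tagged mRNA of the larval seam cells and vulval precursor cells (VPCs) with FLAG::PAB-1, a tagged poly(A) binding protein, and looked for genes regulated by Wnt signaling. Wnt overactivation was the deIs10; huIs1 strain, in which a heat shock promoter drives ΔNTBAR-1, a stabilized β-catenin, and Wnt underactivation was deIs10; deIs26, in which it drives ΔNTPOP-1, a TCF protein that interferes with Wnt target activation. The control was the wild-type strain N2, which carries none of these transgenes. Each group had 3 arrays, all from larvae grown for 26 h at 20°, heat shocked for 30 min at 37° and left to recover for 1 h, near the molt from the second to the third larval stage. The deIs10 transgene expresses FLAG::PAB-1 from a bar-1 enhancer and also holds unc-30(+) and ajm-1::gfp. Both tagged strains were built in a dpy-20 unc-30 mutant background, with dpy-20(+) on the heat shock transgene, and each is a single integrated line. By the methods, N2 went through the same anti-FLAG immunoprecipitation although it has no FLAG epitope. The sample labels instead name cRNA made from total RNA, and the values could not settle which. A comparison with N2 takes in the tag, the transgenes and the strain background together with the Wnt manipulation. The comparison of the tagged strains with each other leaves the tag and deIs10 out.

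In C. elegans, germline stem cells divide at the distal end of the gonad under Notch signaling, and RNA-binding proteins such as FBF and GLD-1 decide, largely by translational control, whether cells keep dividing or enter meiosis. P granules are the RNA and protein bodies of the germ cell cytoplasm, and oocytes later load maternal mRNAs whose translation is held back until the embryo. At the molt from the second to the third larval stage the germline holds mostly dividing cells, with meiosis about to begin, whereas oocytes, yolk uptake and eggshell production belong to the adult. The bar-1 enhancer is active in epidermal cells, so germ cells were not the tagged cells. A germline mRNA in these samples may come from untagged cells, for instance by background binding. For a gene that also works outside the germline, it may come from the tagged cells. These arrays do not tell such sources apart.

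The arrays correlated over all probe sets at 0.942 to 0.976 within groups and 0.928 to 0.973 between groups. Array controls for actin showed a mean log2 excess of 3′ over 5′ signal of 0.793 on N2, 1.87 on overactivation and 1.78 on underactivation, and those for Gapdh 2.45, 3.36 and 3.28, so the mean 3′ excess was higher in both tagged groups than in N2. All 3 overactivation arrays lay above N2 for both controls, whereas underactivation replicate 4 lay within the N2 range for both (0.903 for actin and 2.87 for Gapdh) and underactivation replicate 2 did for Gapdh (2.92). The part of this excess in the results below was not tested. The tagged cell types were represented by 15 seam and epidermis genes. Their median log2 difference from N2 was 0.94 in overactivation and -0.02 in underactivation. In underactivation 8 of the 15 had a lower mean than N2. The list was drawn up with genes that the paper reports as Wnt-regulated, among them nhr-23, nhr-74 and che-14. The tag and the Wnt manipulation therefore cannot be told apart in the overactivation value. Of the 15 genes, only ajm-1 was called higher than N2 in overactivation, where 0.869% of all probe sets were. That gene is also carried by deIs10. At an unadjusted p under 0.05 (limma), 6 of the 15 were higher and 0 lower, against 8.83% and 9.07% of all probe sets. All 3 overactivation arrays lay above all 3 N2 arrays for 6 of the 15, against 11.6%.

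All values are log2 RMA signals, in which 1 unit is a doubling, and differences come from a limma fit with 3 groups over 22548 probe sets, with the Benjamini-Hochberg adjustment taken over all probe sets and a threshold of 0.05. A signal is a relative brightness of 1 probe set and was tested against no background. The 8 genes glh-4, gld-3, fbf-1, cpb-1, mex-6, pos-1, oma-2 and chs-1 were called low in signal, since the highest of their 3 group means lay below 3.66, the level that a share of 0.333 of all probe sets did not reach by their mean.

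**Figure D1:**
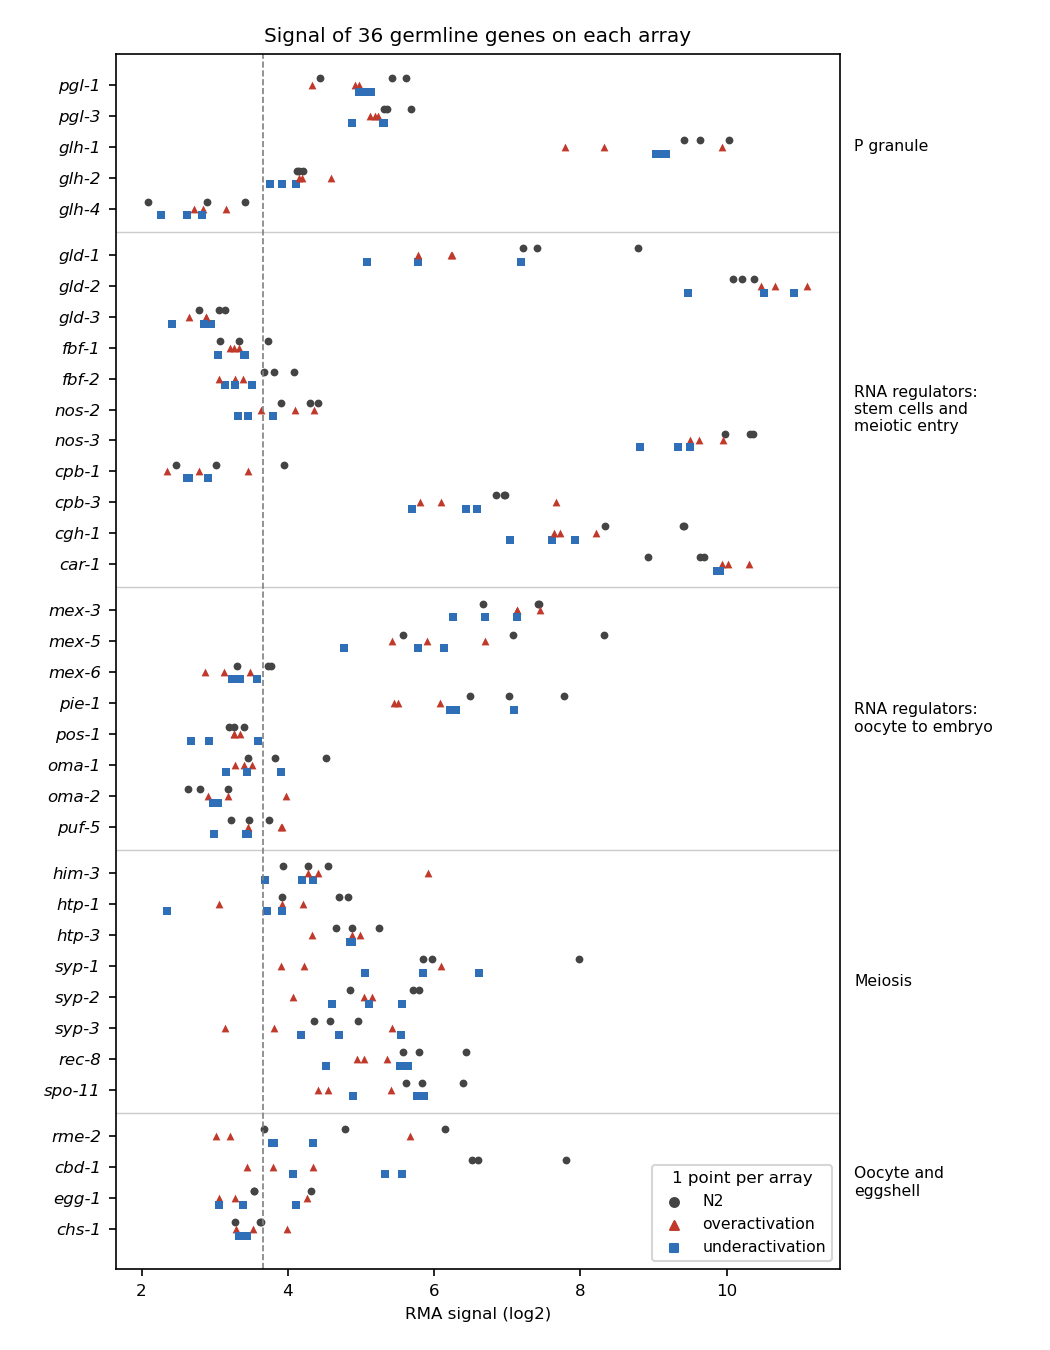
Log2 RMA signal (x axis) of each of the 36 germline genes (y axis, by role) on each of the 9 arrays; circles are N2, triangles overactivation and squares underactivation, and the dashed line marks 3.66, the limit used to call a signal low. The RNA regulators of stem cells and meiotic entry span most of the range, from gld-3 and cpb-1 near the low end to gld-2 and nos-3 above 8.8. The lowest value belongs to glh-4, and cbd-1 has the widest gap between N2 and overactivation.

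Against N2, most of the germline genes had lower mean signals in overactivation, but only cbd-1, a chitin-binding protein of the eggshell, passed the test. The mean was lower for 26 of the 36 genes (72.2%, against 45.3% of all probe sets), and the median difference was -0.41, against 0.04 over all probe sets. Called lower was 1 gene, where 0.692% of all probe sets were called lower, and called higher were 0, against 0.869% (1.56% in either direction). At an unadjusted p under 0.05, 8 genes were lower and 1 was higher, where 9.07% and 8.83% of all probe sets were. All 3 overactivation arrays lay below all 3 N2 arrays for 9 genes and above them for 2, against 9.06% and 11.6% of all probe sets. In such a bulk sample, fewer cells of a type and less RNA per cell cannot be told apart.

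The median over the 36 genes was not equally low on the 3 overactivation arrays. Relative to the N2 mean it was -0.08 in replicate 1, -0.49 in replicate 3 and -0.50 in replicate 4, while the N2 arrays ranged from -0.03 to -0.01. The N2 mean is taken over these same N2 arrays, which draws their medians close to it. Their narrow range is therefore not a measure of the spread between N2 arrays. Replicate 1 of overactivation sat closest to the N2 mean, and replicates 3 and 4 lay further below it. Left out in turn, replicate 4 of overactivation moved the median difference from -0.41 to -0.25, and replicate 1 moved it to -0.58.

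In underactivation, 32 of the 36 genes had a lower mean than in N2 (88.9%, against 49.1% of all probe sets), and none passed the test. The median difference was -0.39, against 0.01 over all probe sets. Called were 0 genes in either direction by limma, where 0.00443% of all probe sets were called lower and 0% higher. At an unadjusted p under 0.05, 7 genes were lower and 0 were higher, against 6.31% and 6.51% of all probe sets, and the smallest adjusted p was 0.127, for cgh-1. The arrays did not overlap for 9 genes that were lower and 1 that was higher, against 7.41% and 8.3% of all probe sets. The 3 underactivation arrays had medians of -0.39, -0.34 and -0.53 relative to the N2 mean, all below that mean. This comparison and the preceding one use the same 3 N2 arrays, so they are not independent of each other.

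**Figure D2:**
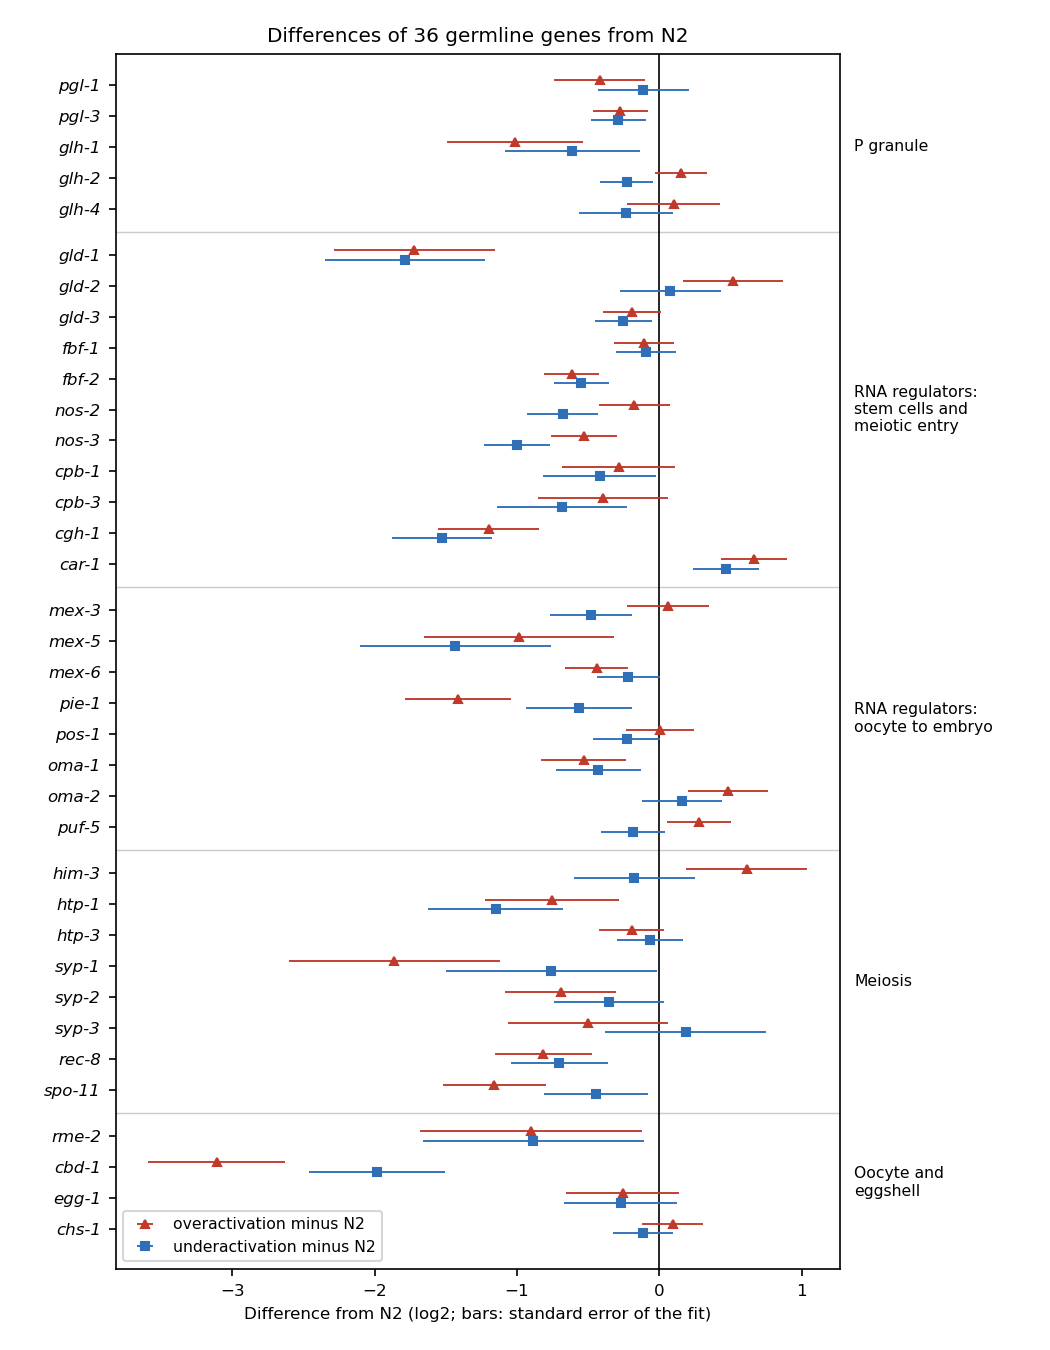
Difference from N2 (x axis, log2) of each of the 36 germline genes (y axis, by role) in overactivation (triangles) and underactivation (squares), with bars giving the standard error of the limma fit and 3 arrays a group. Most points lie left of 0 in both comparisons, and the point farthest from 0 is cbd-1 in overactivation, at -3.11.

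The P granule genes had a median difference of -0.27 in overactivation and -0.23 in underactivation, and 0 of 5 passed either test. GLH-1 is a Vasa-like DEAD-box helicase of the P granule. The signals of glh-1 were 9.64, 10.03 and 9.42 on N2, 9.94, 8.32 and 7.79 on overactivation and 9.18, 9.06 and 9.03 on underactivation. Replicate 1 of overactivation lay within the N2 range and the other two lay far below it, whereas the underactivation arrays were all slightly below N2 and close together. The difference was -1.01 in overactivation (SE 0.48, adjusted p = 0.311, limma) and -0.61 in underactivation (adjusted p = 0.684). Without replicate 1 of overactivation it was -1.64, and glh-1 then passed the test.

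A second probe set of glh-1, dimmer than the one used, read 6.79, 7.64 and 7.53 on N2, 6.14, 5.01 and 4.79 on overactivation and 5.98, 6.60 and 6.46 on underactivation. On this probe set both tagged groups were below N2 with no overlap, and it fell by 2.01 in overactivation (SE 0.39, adjusted p = 0.0459, limma). The call was made in only 2 of the 9 fits that left out 1 array, without N2 replicate 2 and without overactivation replicate 1, and the adjusted p reached 0.141 without overactivation replicate 3. In underactivation its difference was -0.97.

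PGL-1 and PGL-3 are paralogous RNA-binding scaffold proteins of the P granule. The signals of pgl-1 were 4.44, 5.42 and 5.62 on N2, 4.97, 4.92 and 4.33 on overactivation and 5.14, 4.97 and 5.03 on underactivation. Those of pgl-3 were 5.36, 5.32 and 5.69 on N2, 5.23, 5.12 and 5.20 on overactivation and 5.32, 5.31 and 4.88 on underactivation. For pgl-1 the groups overlapped, and for pgl-3 the overactivation arrays lay just below N2, with differences of -0.42 and -0.27 in overactivation and -0.11 and -0.29 in underactivation. The helicase gene glh-2 differed from N2 by 0.15 and -0.23, and glh-4, another member of this helicase family and low in signal, by 0.10 and -0.23.

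Among the 11 RNA regulators of germline stem cells and meiotic entry, the median difference was -0.28 in overactivation and -0.55 in underactivation, and 0 genes passed either test. At an unadjusted p under 0.05, 3 were lower and 1 was higher in overactivation, against 9.07% and 8.83% of all probe sets. In underactivation 5 were lower, against 6.31%. The group is wider than its name, since it also holds cgh-1 and its partner car-1. In overactivation cgh-1 was 1 of the 3 lower genes and car-1 was the 1 higher gene. CGH-1 is a DEAD-box helicase that protects stored maternal mRNAs and also works outside the germline. The signals of cgh-1 were 9.42, 9.41 and 8.34 on N2, 7.72, 7.64 and 8.21 on overactivation and 7.61, 7.93 and 7.04 on underactivation. Every tagged array was below every N2 array, although the lowest N2 array, replicate 4, was close to the highest overactivation array. The N2 mean was 9.06 ± 0.62 (SD, n = 3), and the difference was -1.20 in overactivation, 2.3-fold lower (SE 0.35, adjusted p = 0.124, limma), and -1.53 in underactivation, 2.88-fold lower (adjusted p = 0.127).

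A second, dimmer probe set of cgh-1 had the larger differences. It read 8.70, 8.77 and 8.98 on N2, 6.18, 5.94 and 7.91 on overactivation and 5.92, 7.15 and 5.52 on underactivation. The N2 arrays lay together at the top and the tagged arrays were spread below them, at -2.14 in overactivation (adjusted p = 0.0929, limma) and -2.62 in underactivation (adjusted p = 0.111).

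GLD-1 is a translational repressor that promotes meiotic entry and oogenesis. The signals of gld-1 were 8.78, 7.41 and 7.22 on N2, 6.24, 5.78 and 6.23 on overactivation and 5.79, 7.19 and 5.08 on underactivation. Overactivation lay below N2 by a clear margin, whereas replicate 4 of underactivation came within a few hundredths of the lowest N2 array. The difference was -1.72 in overactivation, 3.3-fold lower (SE 0.57, adjusted p = 0.156, limma), and -1.79 in underactivation, 3.45-fold lower (adjusted p = 0.243). A second probe set of gld-1 differed by -1.40 (adjusted p = 0.346) and -1.47.

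The Nanos proteins NOS-2 and NOS-3 act in primordial germ cells and, with the FBF proteins, in the switch from sperm to oocyte. The signals of nos-3 were 10.36, 10.32 and 9.98 on N2, 9.50, 9.63 and 9.95 on overactivation and 9.50, 9.34 and 8.81 on underactivation. It was among the brightest germline probe sets, with 94.7% of all probe sets dimmer, and both tagged groups lay below N2 without overlap. The difference was -0.53 in overactivation (SE 0.23, adjusted p = 0.283, limma) and -1.001 in underactivation (adjusted p = 0.131), and a second probe set gave -1.85 (adjusted p = 0.0653) and -1.26. The signals of nos-2 were 4.41, 4.30 and 3.91 on N2, 4.10, 3.63 and 4.36 on overactivation and 3.32, 3.80 and 3.46 on underactivation. Overactivation overlapped N2 at a difference of -0.18, and underactivation lay below it at -0.68 (adjusted p = 0.298). A probe set shared by nos-2 and T02G5.11 differed by -0.81 and -1.03.

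FBF-1 and FBF-2 are near-identical PUF proteins that keep germline stem cells dividing. The signals of fbf-2 were 3.67, 4.09 and 3.81 on N2, 3.28, 3.39 and 3.06 on overactivation and 3.28, 3.14 and 3.51 on underactivation. Those of fbf-1, low in signal, were 3.33, 3.08 and 3.72 on N2, 3.33, 3.27 and 3.21 on overactivation and 3.40, 3.41 and 3.04 on underactivation. Both tagged groups were below N2 for fbf-2, at -0.62 (adjusted p = 0.141, limma) and -0.55 (adjusted p = 0.284), while all groups overlapped for fbf-1, at -0.11 and -0.09. These signals are near the bottom of the range, a second fbf-2 probe set differed by 0.92 in overactivation, and a probe set that matches both genes differed by -0.04 and -0.29.

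CAR-1, an RNA-binding partner of CGH-1, and GLD-2, a cytoplasmic poly(A) polymerase, had higher means in both tagged groups on the probe sets used. The signals of car-1 were 9.63, 9.69 and 8.93 on N2, 10.01, 10.30 and 9.93 on overactivation and 9.86, 9.90 and 9.91 on underactivation. The tagged arrays were all above N2, whose replicate 4 was the lowest, with differences of 0.67 in overactivation, 1.59-fold higher (SE 0.23, adjusted p = 0.178, limma), and 0.47 in underactivation (adjusted p = 0.456). The other probe sets of car-1 went the opposite way, at -0.45 and -0.28 in overactivation and -0.86 and -0.54 in underactivation, and the mean of all its probe sets differed by -0.022 in overactivation and -0.31 in underactivation.

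For gld-2 the signals were 10.38, 10.08 and 10.22 on N2, 10.66, 10.46 and 11.10 on overactivation and 10.92, 9.47 and 10.52 on underactivation. Overactivation lay above N2 and underactivation spanned it, at 0.52 (adjusted p = 0.496, limma) and 0.08. Its 4 other probe sets were lower in overactivation, by differences from -0.16 to -1.41, the last at an adjusted p of 0.0782, and the mean of all 5 probe sets differed by -0.38 in overactivation and -0.42 in underactivation. GLD-3, a KH-domain partner of GLD-2, and CPB-1, a CPEB protein needed for sperm formation, were low in signal and differed by -0.19 and -0.28 in overactivation and by -0.25 and -0.42 in underactivation. For cpb-3, another CPEB gene, the signals were 6.96, 6.85 and 6.97 on N2, 7.67, 6.10 and 5.81 on overactivation and 6.44, 5.70 and 6.58 on underactivation. Underactivation lay below N2 and replicate 1 of overactivation lay above it, so the differences were -0.40 in overactivation and -0.68 in underactivation, and a second probe set gave -2.09 and -1.58.

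**Figure D3:**
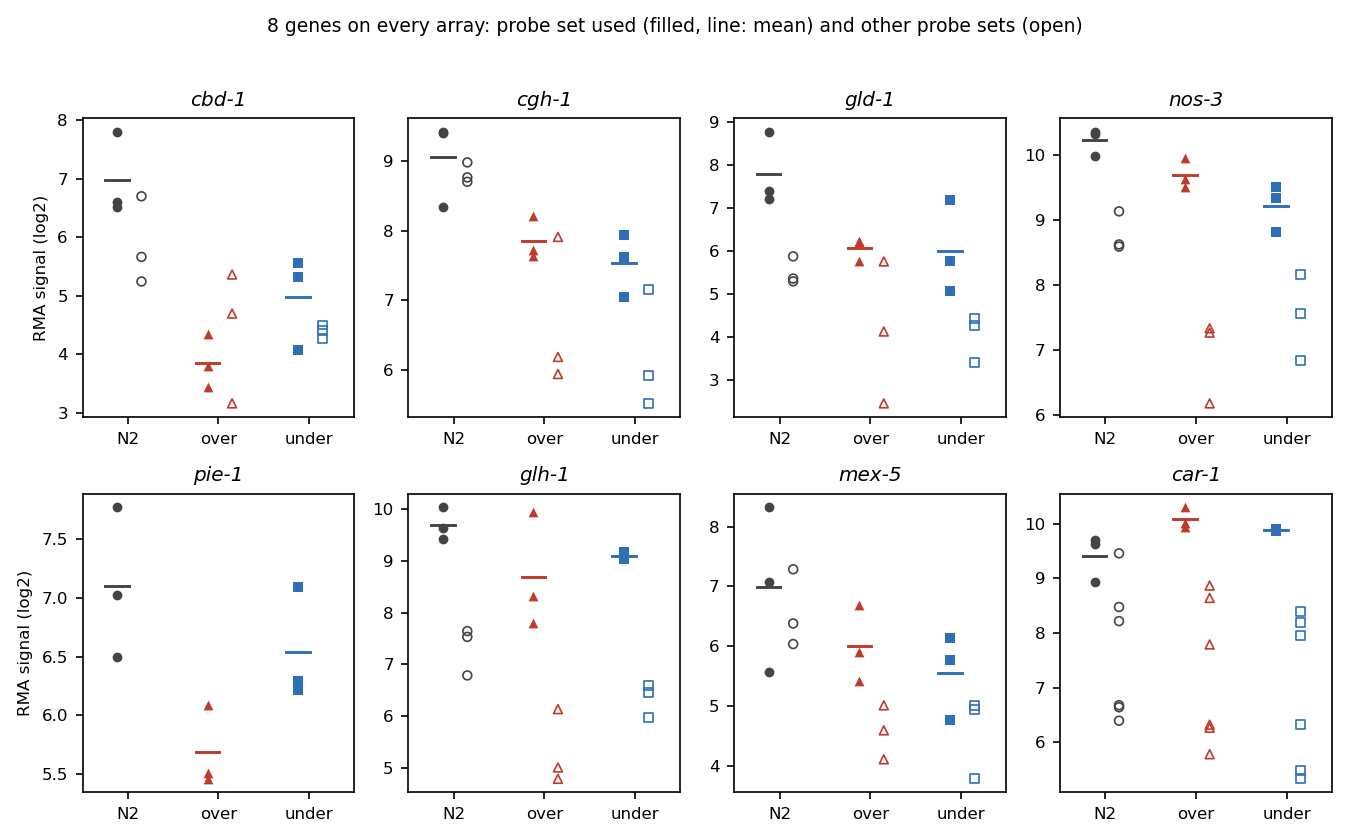
Log2 RMA signal (y axis) of 8 germline genes on every array, by group (x axis; over is overactivation and under is underactivation), with the probe set used as filled symbols, its group mean as a line, and the other probe sets of the gene as open symbols. The open symbols of glh-1, mex-5, nos-3 and cgh-1 separate N2 from the tagged groups by more than the filled ones do, and those of car-1 lie in the opposite direction from the filled ones.

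The 8 RNA regulators of oocytes and early embryos had median differences of -0.22 in overactivation and -0.33 in underactivation, with 0 genes past either test. PIE-1 is a zinc finger protein that silences transcription in the germline blastomeres of the embryo. The signals of pie-1 were 7.78, 6.49 and 7.03 on N2, 6.08, 5.51 and 5.45 on overactivation and 6.29, 7.09 and 6.22 on underactivation. Overactivation was below both other groups without overlap, and underactivation overlapped N2. The difference from N2 was -1.42 in overactivation, 2.67-fold lower (SE 0.37, adjusted p = 0.0949, limma), and -0.56 in underactivation (adjusted p = 0.606).

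MEX-5 and MEX-6 are paralogous zinc finger proteins that set the polarity of the early embryo. The signals of mex-5 were 5.58, 8.33 and 7.08 on N2, 5.91, 5.43 and 6.69 on overactivation and 5.77, 6.13 and 4.77 on underactivation. The N2 arrays alone spread over more than the difference between groups (6.99 ± 1.38, SD, n = 3), replicate 2 being as low as the tagged arrays, and the difference was -0.99 in overactivation (SE 0.67, adjusted p = 0.493, limma) and -1.43 in underactivation (adjusted p = 0.42). A second mex-5 probe set read 6.38, 7.29 and 6.04 on N2, 5.01, 4.11 and 4.59 on overactivation and 4.94, 5.01 and 3.78 on underactivation. There both tagged groups lay below N2 and overlapped each other, at -1.997 in overactivation (adjusted p = 0.0628) and -1.99 in underactivation. The signals of mex-6 on the probe set used, low in signal, were 3.31, 3.77 and 3.73 on N2, 3.48, 2.87 and 3.12 on overactivation and 3.34, 3.58 and 3.23 on underactivation, with overlap in both comparisons and differences of -0.44 and -0.22. A second mex-6 probe set read 3.29, 4.51 and 3.40 on N2, 3.22, 2.67 and 2.88 on overactivation and 3.13, 3.10 and 2.64 on underactivation. On it every tagged array was below every N2 array, N2 replicate 3 being well above the rest, at -0.81 in overactivation (adjusted p = 0.253, limma) and -0.78 in underactivation (adjusted p = 0.381).

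OMA-1 and OMA-2 are paralogous zinc finger proteins required together for oocyte maturation. The signals of oma-1 were 3.82, 4.52 and 3.45 on N2, 3.51, 3.28 and 3.41 on overactivation and 3.91, 3.15 and 3.45 on underactivation. Those of oma-2 were 3.18, 2.63 and 2.80 on N2, 3.19, 2.90 and 3.97 on overactivation and 3.05, 2.98 and 3.05 on underactivation. Both genes were near the bottom of the signal range with overlapping groups, at -0.53 and 0.48 in overactivation and -0.43 and 0.16 in underactivation. The remaining genes of this role are mex-3, which encodes a KH-domain translational repressor, pos-1, which encodes a zinc finger protein of the embryo, and puf-5, which encodes a PUF protein of oocytes. They differed from N2 by 0.06, 0.01 and 0.28 in overactivation and by -0.48, -0.23 and -0.19 in underactivation.

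The 8 meiosis genes had median differences of -0.72 in overactivation and -0.40 in underactivation, and 0 passed either test. At an unadjusted p under 0.05, 3 were lower in overactivation and 1 in underactivation, against 9.07% and 6.31% of all probe sets. SPO-11 makes the DNA double-strand breaks that start meiotic recombination. The signals of spo-11 were 5.84, 5.62 and 6.39 on N2, 4.41, 5.41 and 4.55 on overactivation and 5.76, 5.86 and 4.90 on underactivation. Overactivation lay below N2 without overlap at -1.16, 2.23-fold lower (SE 0.36, adjusted p = 0.144, limma), and underactivation overlapped N2 at -0.44. REC-8 is the meiotic cohesin, which holds sister chromatids together. The signals of rec-8 were 5.57, 6.43 and 5.80 on N2, 5.36, 4.95 and 5.05 on overactivation and 5.53, 5.65 and 4.52 on underactivation. Overactivation was again just below N2, at -0.81 (adjusted p = 0.258), and underactivation overlapped it, at -0.70 (adjusted p = 0.445).

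SYP-1, SYP-2 and SYP-3 form the central region of the synaptonemal complex, which joins paired chromosomes. The signals of syp-1 were 5.85, 5.97 and 7.99 on N2, 6.09, 4.22 and 3.90 on overactivation and 5.85, 6.62 and 5.06 on underactivation. The difference in overactivation, -1.86 or 3.64-fold lower (SE 0.74, adjusted p = 0.233, limma), was the second largest of the 36 genes but depended on single arrays. It was -1.17 without N2 replicate 4, the highest array, and -2.54 without overactivation replicate 1, which lay within the N2 range. In underactivation syp-1 overlapped N2 at -0.76 (adjusted p = 0.761). The other members of the complex, syp-2 and syp-3, differed by -0.69 and -0.50 in overactivation and by -0.35 and 0.18 in underactivation.

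HIM-3, HTP-1 and HTP-3 are HORMA-domain proteins of the meiotic chromosome axis. The signals of htp-1 were 3.92, 4.70 and 4.83 on N2, 3.92, 4.21 and 3.05 on overactivation and 3.92, 3.72 and 2.35 on underactivation. The groups overlapped, and the differences were -0.75 in overactivation and -1.15 in underactivation (adjusted p = 0.36, limma). Overactivation replicate 1, at 5.92, stood above all other arrays for him-3, and the difference of 0.61 in overactivation was 0.09 without it. For htp-3 the differences were -0.19 and -0.06, and 4 of the 9 arrays held one identical value, 4.87. Identical values on 2 or more arrays were found for 34.4% of all probe sets.

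Of the 4 oocyte and eggshell genes, cbd-1 was the only one past the test, and the median difference of the 4 was -0.58 in both comparisons. CBD-1 is a chitin-binding protein of the eggshell. The signals of cbd-1 were 7.80, 6.52 and 6.61 on N2, 4.35, 3.44 and 3.80 on overactivation and 5.56, 5.33 and 4.07 on underactivation. Overactivation was lowest and N2 highest, with no overlap between N2 and either tagged group, and the overactivation arrays lay near the level used to call a signal low. The group means were 6.97 ± 0.72, 3.86 ± 0.46 and 4.99 ± 0.80 (SD, n = 3 each). In overactivation cbd-1 fell by 3.11 on the log2 scale, 8.65-fold lower than N2 (SE 0.48, adjusted p = 0.0254, limma), and in underactivation its difference was -1.99, 3.96-fold lower (adjusted p = 0.136).

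The call of cbd-1 in overactivation was made in 5 of the 9 fits that left out 1 array. It was lost without N2 replicate 3 (adjusted p = 0.0513, limma), N2 replicate 4 (0.0534), overactivation replicate 3 (0.0948) and overactivation replicate 4 (0.06), with the difference between -3.35 and -2.70 over all 9 fits. A second, dimmer probe set of cbd-1 read 6.70, 5.67 and 5.25 on N2, 5.37, 4.70 and 3.17 on overactivation and 4.50, 4.41 and 4.28 on underactivation. It was lower in both tagged groups as well, with 1 overactivation array inside the N2 range, and its differences of -1.46 (adjusted p = 0.208) and -1.47 were smaller than those of the probe set used.

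RME-2 is the oocyte receptor for yolk. The signals of rme-2 were 3.67, 6.15 and 4.78 on N2, 5.67, 3.02 and 3.22 on overactivation and 4.35, 3.79 and 3.82 on underactivation. The range of the N2 arrays and that of the overactivation arrays were each larger than the differences of -0.90 (SE 0.78, adjusted p = 0.605, limma) and -0.89 (adjusted p = 0.728). EGG-1, a receptor on the oocyte surface that is needed for fertilization, and CHS-1, the chitin synthase of the eggshell, were near the bottom of the range, and differed by -0.26 and 0.09 in overactivation and by -0.27 and -0.12 in underactivation.

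Compared directly, the tagged strains did not differ in any of the 36 genes by the limma test. Called were 0 genes in either direction, where 0.00443% of all probe sets were called higher and 0% lower in overactivation. At an unadjusted p under 0.05, 2 genes were lower and 0 higher, against 2.91% and 2.75% of all probe sets, and the arrays did not overlap for 3 genes that were higher and 1 that was lower, against 6.59% and 5.18%. The mean was higher in overactivation for 21 genes and lower for 15 (41.7%, against 46.1% of all probe sets). The median difference was 0.06, against 0.03 over all probe sets. Both genes under 0.05 were named above, cbd-1 at -1.13 (SE 0.48, adjusted p = 0.872) and pie-1 at -0.85 (SE 0.37, adjusted p = 0.879). A p that misses the threshold does not show that the strains had equal levels.

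Against N2, the 6 tagged arrays as one group gave the same single call. The gene cbd-1 fell by 2.55 (SE 0.41, adjusted p = 0.0285, limma), 1 of 36 genes called lower where 0.834% of all probe sets were, and 0 were called higher, against 0.891% (1.73% in either direction). That call was made in 4 of the 9 fits that left out 1 array, and was lost without N2 replicate 3 (0.0663), N2 replicate 4 (0.0572), overactivation replicate 3 (0.0672), underactivation replicate 2 (0.0644) and underactivation replicate 5 (0.0639). At an unadjusted p under 0.05, 9 genes were lower and 1 was higher, against 9.41% and 8.67% of all probe sets. All 6 tagged arrays lay below all 3 N2 arrays for cbd-1, cgh-1, gld-1, nos-3 and fbf-2 and above them for car-1, which is 5 genes lower and 1 higher, against 4.01% and 4.51%. Next after cbd-1 came cgh-1 at -1.36 (adjusted p = 0.0638, and 0.0449 without N2 replicate 4), nos-3 at -0.76 (adjusted p = 0.0956) and gld-1 at -1.75 (adjusted p = 0.107, and 0.0391 without underactivation replicate 4).

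Of the 36 genes, 17 had more than 1 probe set, and their 22 other probe sets, all dimmer than the one used, gave a further reading of the same arrays. In overactivation 18 of the 22 were lower than N2, with a median of -0.50, and in underactivation 21 were, with a median of -0.71. Called lower in overactivation was the second probe set of glh-1, where 0.692% of all probe sets were called lower. Over the 6 tagged arrays together it was the second probe set of mex-5, which fell by 1.99 (adjusted p = 0.0422, limma), where 0.834% were. The mex-5 call was made in 1 of the 9 fits that left out 1 array, and its adjusted p reached 0.107 without N2 replicate 3.

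Of a longer list of other germline genes of the same roles, some of them also expressed in other tissues, 62 had a probe set of their own. In overactivation 46 of the 62 had a lower mean than N2 (74.2%, against 45.3% of all probe sets), and the median was -0.32. At an unadjusted p under 0.05, 11 were lower (17.7%, against 9.07%) and 1 was higher (1.61%, against 8.83%). Called lower was 1, where 0.692% of all probe sets were. That gene was rnp-8, which encodes the RNA-binding protein that partners GLD-2 in the oogenic program. Its signals were 6.00, 5.89 and 5.94 on N2, 4.79, 3.75 and 4.73 on overactivation and 4.38, 4.79 and 4.10 on underactivation. The N2 arrays nearly coincided and all tagged arrays lay more than 1 unit below them. It fell by 1.52 in overactivation, 2.86-fold lower (adjusted p = 0.0497, limma), a call made in 0 of the 9 fits that left out 1 array (adjusted p from 0.0511 to 0.107). In underactivation its adjusted p was 0.0977. Over the 6 tagged arrays together rnp-8 was also called lower, at -1.52 (adjusted p = 0.0332, limma), where 0.834% of all probe sets were. Over these 62 genes, 47 had a lower mean in underactivation (75.8%, against 49.1% of all probe sets), with a median of -0.28. At an unadjusted p under 0.05, 6 were lower (9.68%, against 6.31%) and 0 were higher (against 6.51%). Called were 0, where 0.00443% of all probe sets were called. In the other roles, the smallest p-values in overactivation were those of mex-1, an embryonic zinc finger protein gene, at -1.09 (adjusted p = 0.0979), and syp-4, another synaptonemal complex gene, at -1.29 (adjusted p = 0.0891). The P granule gene mip-1 was at -0.57 (adjusted p = 0.347), and cpg-2, which encodes a chondroitin proteoglycan of the eggshell, at -1.40 (adjusted p = 0.452).

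Markers of other untagged tissues were measured on the same arrays. Body wall muscle genes had a median difference from N2 of -0.88 in overactivation and -0.81 in underactivation, with 2 of 11 called lower in overactivation, myo-3 and unc-54. Their summed log2 signal was 116.29 to 118.36 on N2, 102.28 to 107.72 on overactivation and 106.98 to 114.17 on underactivation. Intestine genes had medians of -1.33 and -1.08, with 1 of 10 called lower, ges-1, and sums of 70.71 to 74.25, 58.26 to 65.51 and 56.46 to 68.00. Neuron genes had medians of -0.33 and -0.35, with 1 of 11 called lower, egl-3. These calls in the muscle, intestine and neuron lists are in overactivation, where 0.692% of all probe sets were called lower. The summed signal of the 36 germline genes was 198.07 to 198.53 on N2, 174.18 to 191.98 on overactivation and 172.06 to 184.98 on underactivation, so it too was lower on all tagged arrays, and the part of these other tissues in the germline values was not tested. The 17 sperm genes, 9 of them low in signal, had medians of -0.00 and -0.01, and the 12 somatic gonad genes -0.19 and -0.21. In either list 0 were called in overactivation or underactivation. Lower means than N2 were found for 9 of the 12 somatic gonad genes and 9 of the 17 sperm genes in each comparison. Over all probe sets the shares were 45.3% in overactivation and 49.1% in underactivation. Over the 6 tagged arrays together, 1 somatic gonad gene was called lower, where 0.834% of all probe sets were. It was tra-1, the sex determination transcription factor gene, which fell by 1.03 (adjusted p = 0.0422, limma).

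**Figure D4:**
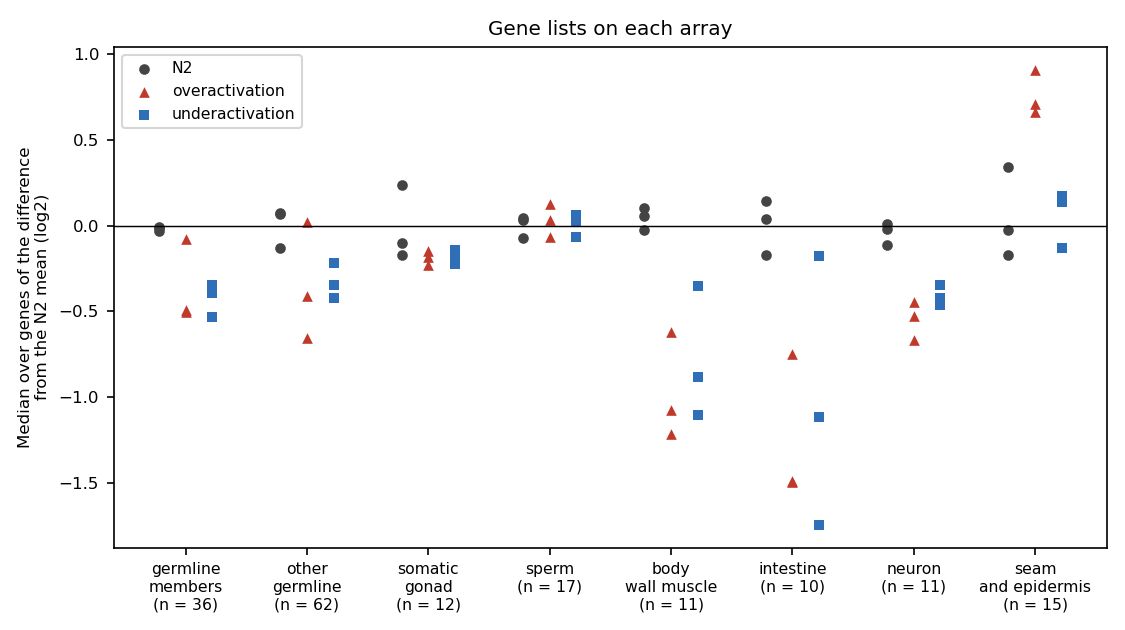
Median over the genes of a list of the difference from the N2 mean (y axis, log2) on each of the 9 arrays, for the 36 germline genes, 62 other germline genes and 6 tissue lists (x axis, with the number of genes n). The germline genes lie below 0 on all 6 tagged arrays, least so on overactivation replicate 1 at -0.08. The muscle and intestine lists lie lower still on most tagged arrays. The sperm list, with 9 of 17 genes low in signal, stays near 0. The N2 mean is taken over the same N2 arrays, which draws their points towards 0.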

How the data were processed

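The log2 values of 9 arrays were used as deposited; the authors computed them from the scanned arrays by Robust Multichip Average (RMA) in the Partek software, whose versions are not given in the sources used here. The methods name amplified cDNA of immunoprecipitated mRNA as the material and the labels name cRNA made from total RNA, and the values could not settle which. Groups and replicate numbers came from the sample labels (N2 replicates 2, 3 and 4, overactivation 1, 3 and 4, underactivation 2, 4 and 5). The methods call the arrays of a strain biological triplicates, and the labels say no more of their origin. Arrays of a further tagged strain, deIs10; scm::gfp, were not analysed here, and 0 columns of values were left unused.

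Probe sets were named through the platform annotation: of 22548 probe sets after leaving out 77 controls, 20766 had 1 gene, 887 several and 895 none. A linear model with 3 groups was fitted in R 4.3.3 with limma 3.58.1 and moderated variances (residual degrees of freedom 6, prior 2.71), two-sided. The same fit was also tested on simulated data. The tagged contrast is the mean of both tagged groups minus N2. No sequence is printed.

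The 36 genes and all lists were chosen with earlier results of these data known. Values on every array are given for genes called in any comparison, genes whose arrays do not overlap between a tagged group and N2 at an unadjusted p under 0.05, the 2 largest differences from N2 in each role in overactivation and in underactivation, and 4 paralogous pairs; further probe sets, cpb-3 and gld-2 arrays were added after their values were seen. The number of arrays limits the precision. Alternatives were quantile normalization again, centring on each array's median, a filter dropping dim probe sets (the lowest 0.333 by mean), no moderation, trend and robust moderation, a fit to just the groups compared, a replicate block (fixed or random), weights for arrays, averaging the probe sets of a gene, and leaving out each array. Figures were made in matplotlib 3.10.9 under Python 3.11.15.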

Additional observations from a re-analysis of the deposited data

How the results depend on the processing

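The median difference of the 36 genes from N2 kept its sign under every alternative tried in overactivation, in underactivation and over both tagged groups. With the dimmest probe sets left out (a share of 0.333) it was -0.61, -0.59 and -0.65 in that order, over the 24 genes kept. The count of genes called lower in overactivation went from 1 to 0 without moderation and with only the groups compared (adjusted p of cbd-1 0.0573, limma). Over both tagged groups it went from 1 to 0 without moderation. It went to 2 with the dimmest probe sets left out (cgh-1 added, adjusted p 0.0465, limma). With the mean of all probe sets of a gene it went to 3 (cgh-1 and nos-3 added, adjusted p 0.0405 each). The share of all probe sets called was not counted in the alternative fits, so these changes are not set against it. The fits without the dimmest probe sets and with the mean of all probe sets of a gene also adjust over fewer tests. With that mean, of the 17 genes with several probe sets, 4 changed sign in overactivation (car-1 to -0.022, fbf-2 to 0.15, gld-2 to -0.38, pos-1 to -0.38), 2 in underactivation (car-1 to -0.31, gld-2 to -0.42), 2 over both tagged groups (car-1 to -0.17, gld-2 to -0.40) and 3 between the tagged strains (cpb-3 to -0.11, fbf-2 to 0.47, nos-3 to -0.061).

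Arrays that share a replicate number did not stand apart as a set. In their residuals, 5 such pairs between groups correlated at -0.088 to 0.234 and the other 22 pairs at -0.197 to 0.211. The numbers were therefore not taken as pairs. The value of 0.234 belonged to the replicate 4 arrays of N2 and underactivation. The signals of these arrays correlated at 0.973, against 0.942 to 0.96 between N2 arrays. Underactivation replicate 4 correlated with underactivation replicates 2 and 5 at 0.971 and 0.969, slightly below its value with N2 replicate 4. In the residuals, the other pairs of replicate 4 arrays were at 0.0839 and 0.0738. A shared origin of the replicate 4 arrays was not tested. With the replicate number as a fixed block, 0 genes were called in overactivation and 0 over both tagged groups (adjusted p of cbd-1 0.143 and 0.165, limma), and the median between the tagged strains went from 0.06 to -0.14. As a random block, with a correlation of 0.063, it left every count of called genes as it was.

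Leaving out 1 array at a time, the genes called numbered 0 to 2 in overactivation, 0 in underactivation, 0 between the tagged strains and 0 to 2 over both tagged groups. The medians ranged from -0.58 to -0.25, -0.46 to -0.30, -0.03 to 0.17 and -0.46 to -0.30 in that order. The share of all probe sets called was not counted in these fits. With 3 arrays a group, dim genes near 3.66 limit what can be read from the oocyte and eggshell genes, and the cause of the changes with processing was not tested.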
